A study of Mus musculus with 2 samples.

Results

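Peaks of accessible chromatin were examined at 8 genes that encode transcription factors of the gonadotrope lineage, the pituitary cells that make luteinizing hormone and follicle-stimulating hormone. The genes were Nr5a1, Pitx1, Gata2, Foxl2, Lhx3, Lhx4, Isl1 and Nr0b1, 8 of the 21938 protein-coding genes of the GENCODE annotation of mouse build GRCm38. They were chosen by their known roles, with earlier results of these data known but without a peak value in the rule. All peaks whose summit lay in the gene body or within 50 kb of either end were assigned to a gene, which gave 18 of the 58519 peaks of replicate 1 and 27 of the 64984 peaks of replicate 2.

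The data came from ATAC-seq, in which a transposase cuts open chromatin and the ends of the cut fragments are sequenced. It was done on LβT2 cells, an immortalized mouse gonadotrope line that was derived from a pituitary tumour driven by a large T antigen transgene, so a line of transformed cells stands for the lineage here. Both libraries carried the same treatment, pulses of 2 nM gonadotropin-releasing hormone (GnRH) given every 2 h, 4 pulses in all, with harvest at 6 h and 45 min, and both came from passage 21. No untreated sample is analysed here, so none of the values below measures an effect of GnRH.

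Nr5a1 encodes SF-1, an orphan nuclear receptor on which gonadotropin gene expression depends, and Nr0b1 encodes DAX-1, an atypical nuclear receptor without a DNA-binding domain that represses SF-1 activity. Pitx1, a bicoid-type homeodomain factor, and the LIM homeodomain factors Lhx3, Lhx4 and Isl1 act from the early pituitary pouch onwards, whereas the zinc finger factor Gata2 and the forkhead factor Foxl2 mark later steps of the gonadotrope lineage. Foxl2 also acts with SMAD proteins at the Fshb gene. ATAC-seq reports whether DNA is open and does not report whether a gene is transcribed.

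Outside the promoters, the peaks with the most tags in replicate 2 lay upstream of Nr0b1, in an intron of Nr5a1 and on both sides of Gata2, and the strongest promoter peak lay at Isl1. The 300 bases around the replicate 2 summit are shown here for the peaks of Nr5a1, Gata2 and Isl1, because each of them was also found in replicate 1, and the window downstream of Lhx3 is added because it holds the same SF-1 letters as a Gata2 window. Of the Isl1 window, the 164 bases before the 5′-most transcription start site (TSS) are given. None of the bases shown lies in an annotated exon. All were read from the plus strand of GRCm38, 5′ to 3′, and the capitals mark matches, on either strand, to the motif letters listed after them.
Nr5a1, intron 6, chr2:38695786-38696085: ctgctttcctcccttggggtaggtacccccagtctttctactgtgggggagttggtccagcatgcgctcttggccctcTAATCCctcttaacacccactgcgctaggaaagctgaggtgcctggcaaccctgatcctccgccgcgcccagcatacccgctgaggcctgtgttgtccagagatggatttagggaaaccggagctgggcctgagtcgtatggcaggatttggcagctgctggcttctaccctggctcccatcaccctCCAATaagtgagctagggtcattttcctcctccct
Gata2, upstream, chr6:88189587-88189886: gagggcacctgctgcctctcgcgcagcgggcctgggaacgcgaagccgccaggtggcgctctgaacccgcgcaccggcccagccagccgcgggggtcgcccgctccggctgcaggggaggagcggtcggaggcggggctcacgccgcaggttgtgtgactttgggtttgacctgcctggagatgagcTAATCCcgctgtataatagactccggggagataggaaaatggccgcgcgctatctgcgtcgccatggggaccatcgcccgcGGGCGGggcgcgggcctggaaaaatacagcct
Gata2, 38.2 kb downstream, chr6:88231941-88232240: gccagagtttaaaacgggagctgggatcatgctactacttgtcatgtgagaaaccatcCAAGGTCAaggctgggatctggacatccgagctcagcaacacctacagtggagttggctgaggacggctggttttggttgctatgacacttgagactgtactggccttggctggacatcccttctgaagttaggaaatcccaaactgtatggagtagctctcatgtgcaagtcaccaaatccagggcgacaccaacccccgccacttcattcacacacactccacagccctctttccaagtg
Isl1, promoter, chr13:116309690-116309853: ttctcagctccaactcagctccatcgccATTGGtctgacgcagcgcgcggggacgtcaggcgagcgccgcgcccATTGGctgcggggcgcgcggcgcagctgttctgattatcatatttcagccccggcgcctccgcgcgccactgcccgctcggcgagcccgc
Lhx3, 12.8 kb downstream, chr2:26195297-26195596: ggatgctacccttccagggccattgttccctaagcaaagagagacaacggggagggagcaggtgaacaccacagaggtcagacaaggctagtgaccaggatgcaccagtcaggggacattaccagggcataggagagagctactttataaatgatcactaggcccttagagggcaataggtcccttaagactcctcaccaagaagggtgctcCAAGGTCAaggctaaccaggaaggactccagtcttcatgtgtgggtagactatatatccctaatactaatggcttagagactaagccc

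The capitals stand for CAAGGTCA, the SF-1 half-site, TAATCC, the bicoid site bound by PITX factors, GGGCGG, the GC box of Sp1 family proteins, and CCAAT, the box named after its letters. Each was searched on both strands. Other letters searched were AGATAA for GATA factors, TGANTCA for the AP1 proteins Fos and Jun, TAATTA for LIM homeodomain factors, GTAAACA for forkhead factors, GCGTGGGCG for EGR factors (letters that overlap those of the GC box), TGACGTCA for the cAMP response element (CRE), CACGTG for E-box factors and CAGATG for NeuroD factors. A match is a description of the letters and not evidence of binding, and a missing match says only that these letters are not in the window.

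The 8 windows covered 926.752 kb and held 22.5 ± 6.36 peaks (SD, n = 2 replicates). Promoter peaks, with a summit within 1 kb of any annotated TSS of the gene, numbered 2 in replicate 1 and 8 in replicate 2. A summit within this limit was classed as promoter even where it lay in an intron or exon of the gene. In replicate 2 the promoter summits of Nr5a1, Gata2 and Lhx4 all lay in an intron of at least 1 transcript. Intronic peaks beyond the promoter limit numbered 2 and 1. No summit outside the promoters lay in an exon of the 8 genes in either replicate, and distal peaks, outside the gene body, numbered 14 and 18. Distal peaks thus made up 77.8% of the window peaks in replicate 1 and 66.7% in replicate 2. Most of each window lay outside the gene body, so a distal majority can follow from the window rule alone. No distal share over the windows of all protein-coding genes is set beside it, so these shares do not set the 8 genes apart. The distal class also holds peaks in repeat sequence and peaks at promoters of neighbouring genes, as described below.

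**Figure D1:**
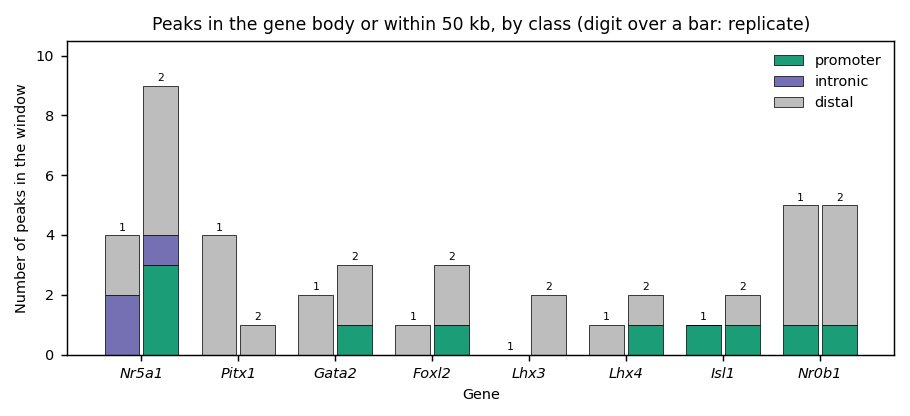
Number of peaks (vertical axis) in the window of each gene (horizontal axis), stacked by class, with the left bar of each pair for replicate 1 and the right bar for replicate 2. Nr0b1 has 5 and 5 peaks and Nr5a1 has 4 and 9, Pitx1 equals Nr5a1 with 4 in replicate 1 but has 1 in replicate 2, and Lhx3 has no peak in replicate 1.

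Nr5a1 had 4 peaks in replicate 1 and 9 in replicate 2, and Nr0b1 had 5 in each. Per 100 kb of window, the median of the 8 genes was 1.37 peaks in replicate 1 and 2.25 in replicate 2, beside medians of 1.73 and 2.31 over all protein-coding genes. In each replicate 4 of the 8 genes fell below the median of all genes. By this density Nr0b1 stood at the 89.0th and 83.3rd percentile of all genes, Nr5a1 at the 76.8th and 93.8th, and Pitx1 at the 79.5th and 19.3rd. These ranks count peaks in sequence that occurs many times in the genome. Such peaks include all those of Pitx1 and most of those downstream of Nr0b1.

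The window peaks were of ordinary height. Their median number of tags, the sequenced ends piled up at the summit after extension, was 14.5 in replicate 1 and 16 in replicate 2, against 14 and 16 over all peaks. The range was 11 to 21 tags in replicate 1 and 11 to 47 in replicate 2, and the lowest peak that either list held had 10 and 11 tags. A −log10 q of at least 10, where q is the p-value of the peak caller adjusted over the genome, was reached by 0 of 18 window peaks in replicate 1 and by 6 of 27 in replicate 2, beside 11.0% and 19.9% of all peaks. A region without a peak was therefore not detectable at this depth, which does not show that it was closed.

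Of the window peaks, 12 of 18 in replicate 1 (66.7%) and 11 of 27 in replicate 2 (40.7%) shared at least 1 bp with a peak of the other replicate, beside 59.1% and 51.6% of all peaks. The 16 peaks found in replicate 2 alone had a median −log10 q of 3.28 and reached 7.67, where the median over all peaks of replicate 2 was 4.19. The 11 shared peaks of replicate 2 had a median of 11.7 and reached 32.6. The contrast was smaller in replicate 1. Its 6 unshared peaks had a median of 3.19 and reached 6.97, and its 12 shared peaks had a median of 4.46 and reached 8.54. Sequence that occurs many times in the genome took part in this list. The central 50 bp of the summit had a single place in the genome for 11 of 18 peaks in replicate 1 and for 22 of 27 in replicate 2.

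**Figure D2:**
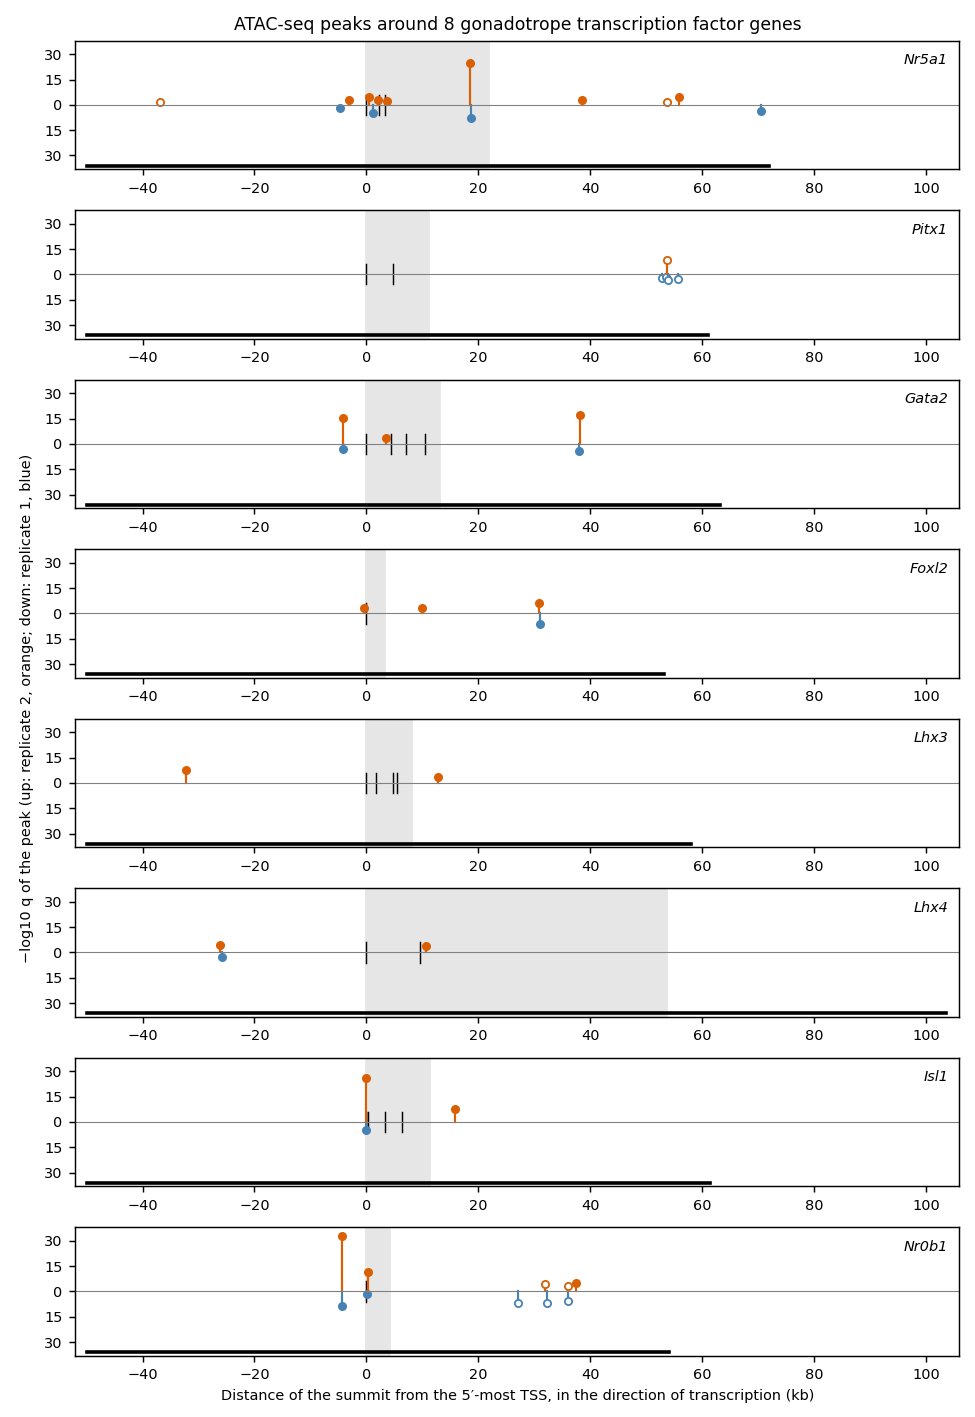
Each panel is the window of a gene. The horizontal axis is the distance of a summit from the 5′-most TSS in kb, in the direction of transcription, and the vertical axis is −log10 q, drawn upwards for replicate 2 (orange) and downwards for replicate 1 (blue). Grey marks the gene body, black ticks the annotated TSSs, the black bar the window, and open circles summits whose central 50 bp occur more than once in the genome. The tallest peaks are upstream of Nr0b1, at the Isl1 promoter and in intron 6 of Nr5a1, and all peaks of the Pitx1 window are open circles.

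A promoter peak was found at 2 of the 8 genes in replicate 1, Isl1 and Nr0b1, where 32.3% of protein-coding genes had one. In replicate 2 it was found at 6 of the 8, all but Pitx1 and Lhx3, where 44.4% of protein-coding genes had one. Isl1 and Nr0b1 had a promoter peak in both replicates, a state shared by 30.8% of protein-coding genes. The 8 genes were below the background share in replicate 1 and above it in replicate 2, so the replicates gave no common direction.

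At a −log10 q of at least 10, the count was 0 of 8 genes in replicate 1, where 11.1% of protein-coding genes passed, and 2 of 8 in replicate 2, where 26.7% passed. Isl1 and Nr0b1 were the 2 genes. The other 4 genes, Nr5a1, Gata2, Foxl2 and Lhx4, had weak promoter peaks in replicate 2 alone, with −log10 q from 2.99 to 4.84. The median percentile of the 8 genes by promoter −log10 q was 0 in replicate 1 and 58.6 in replicate 2, where genes without a peak were set to 0. By this rule even the weak Foxl2 peak, at 2.99, stood at the 57.4th percentile of replicate 2.

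Base composition of the promoters was looked at because CpG-rich promoters are often open. By a GC content of at least 55% and an observed to expected CpG ratio of at least 0.65 over 1001 bp around the 5′-most TSS, a definition chosen after the peaks were seen, Gata2, Foxl2 and Isl1 were CpG-rich, as were 34.7% of protein-coding genes. Of these 3 genes, 1 had a promoter peak in replicate 1 and 3 had it in replicate 2, where 51.5% and 71.4% of CpG-rich genes did. Of the other 5 genes, 1 had it in replicate 1 and 3 in replicate 2, where 22.1% and 30.1% of such genes did. The class was taken at the 5′-most TSS, whereas a promoter peak could lie at any TSS. In replicate 2 the promoter peaks of Lhx4 and Gata2 lay 10.6 and 3.58 kb from the TSS that was scored. With 3 and 5 genes these counts do not separate the members from the background.

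**Figure D3:**
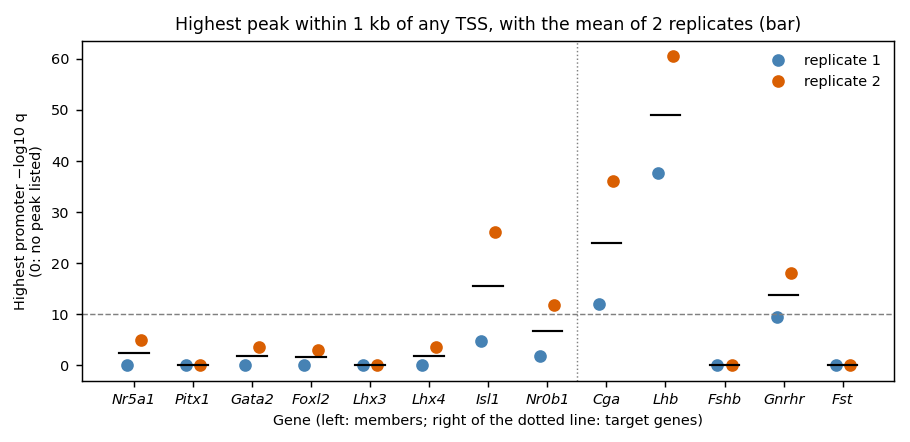
Highest −log10 q of a peak within 1 kb of any TSS (vertical axis) for the 8 genes and, right of the dotted line, 5 gonadotrope target genes (horizontal axis). Points are the replicates, black bars their means, 0 means that no peak was listed, and the dashed line is at 10. Isl1, at 4.80 and 26.1, is the highest of the 8 genes and lies below Lhb, at 37.6 and 60.5, in both replicates.

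Isl1 (chr13:116298281-116309689, minus strand) had the strongest promoter peak. Its summit held 16 tags in replicate 1, 30 bp inside the 5′-most TSS, and 41 tags in replicate 2, 15 bp upstream of that TSS. Both positions sit at the start of the main transcript, and replicate 2 was the higher. The fold over background was 4.20 (95% interval 2.51 to 6.66) and 9.26 (6.71 to 12.5), with a mean of 6.73 ± 3.58 (SD, n = 2). These intervals and the others below are exact Poisson intervals of the tags and cover counting error only.

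The −log10 q of the Isl1 promoter was 4.80 and 26.1, the 77.0th and 90.1st percentile of all protein-coding genes. Genes without a promoter peak were set to 0, so any listed peak ranked above all of these. Nr0b1, at 1.79 in replicate 1, already stood at the 68.0th, and Foxl2, at 2.99 in replicate 2, at the 57.4th. The 300-base windows of the Isl1 promoter held a GATA match and a pair of CCAAT boxes in both replicates. The CCAAT pair is in the bases shown above. Replicate 2 added a distal peak 15.8 kb downstream of the TSS with 21 tags and a −log10 q of 7.67. Replicate 1 had no peak there.

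Nr0b1 (chrX:86191764-86195947, plus strand) carried the highest peak of all 8 windows. Upstream of the single annotated TSS and outside the promoter limit, summits 33 bp apart held 21 tags in replicate 1 and 47 in replicate 2. The peak was found at nearly the same base in both replicates and was higher in replicate 2. Fold over background was 5.43 (3.46 to 8.17) and 10.6 (7.83 to 14.0), with a mean of 8.01 ± 3.64, and −log10 q was 8.54 and 32.6, the 84.8th and 96.7th percentile of all peaks of the list.

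At the promoter of Nr0b1, the summit lay 151 bp inside the gene with 11 tags in replicate 1, and 282 bp inside with 26 tags in replicate 2. The peak of replicate 1 was 251 bp wide and near the lowest that the list held, while that of replicate 2 was 1245 bp wide. The −log10 q was 1.79 and 11.7, with a mean of 6.74 ± 7.002. None of the 12 motifs had a match in either 300-base window. The peak upstream was higher than the promoter peak in both replicates.

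The other Nr0b1 peaks were 27.1 to 37.5 kb downstream. In replicate 1 there were 3, with 17 to 19 tags, and in replicate 2 there were 3, with 14 to 17 tags. All 3 of replicate 1 and 2 of the 3 of replicate 2 had a centre that occurs at 7 to 10892 places in the genome. The remaining peak, at 37.5 kb in replicate 2, had a centre found at 1 place and a −log10 q of 4.84.

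Nr5a1 (chr2:38692656-38714542, minus strand) had its highest peak in intron 6, the last of the 6 introns of its coding transcripts with most exons. The summits, 18.6 kb from the 5′-most TSS and 34 bp apart, held 20 tags in replicate 1 and 40 in replicate 2. The replicates placed the peak at the same site and replicate 2 was the higher. Fold over background was 5.19 (3.26 to 7.87) and 9.04 (6.52 to 12.2), with a mean of 7.11 ± 2.73, and −log10 q was 7.74 and 25.1.

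The intron 6 window held a match to TAATCC, the letters of PITX factors, 38 bp before the summit of replicate 1 and 72 bp before that of replicate 2. These letters occurred in 7.68% and 8.15% of all summit windows. Its central 50 bp were found at 1 place in the genome. No match to the SF-1 letters was present in this window.

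The promoters of Nr5a1 were weak. Replicate 1 had no summit within 1 kb of a TSS, and its nearest one lay 1113 bp from the TSS of the second transcript, just outside the limit, with 16 tags and a −log10 q of 4.80. Replicate 2 had 3 promoter peaks, with 17, 14 and 13 tags, at 441, 270 and 312 bp from the TSSs of 3 transcripts. The third of those is a retained-intron transcript that does not code for protein. Antisense transcripts of Nr5a1os start close to these sites, at 671 bp from the replicate 1 summit and 172 bp from a replicate 2 summit, and ATAC-seq does not tell strands apart.

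The remaining 2 peaks of replicate 1 near Nr5a1 had 11 and 14 tags, and the latter lay 66 bp from a TSS of Psmb7, a proteasome subunit gene at the far end of the window. The remaining 5 of replicate 2 had 11 to 17 tags, and none of these overlapped a peak of the other replicate. Nr5a1 therefore owed its high count of 9 in replicate 2 to low peaks, and the intron 6 peak was the only one of its window shared between the replicates.

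Gata2 (chr6:88193891-88207032, plus strand) had a pair of distal peaks in both replicates. Upstream, 4162 and 4154 bp from the 5′-most TSS, summits 8 bp apart held 13 tags in replicate 1 and 30 in replicate 2. It is the closest agreement of summits among the shared peaks, and replicate 2 was again the higher. Fold over background was 3.46 (1.96 to 5.74) and 6.83 (4.68 to 9.66), with a mean of 5.15 ± 2.39, and −log10 q was 2.88 and 15.2.

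Downstream of Gata2, 38.1 and 38.2 kb from that TSS and in an intron of Dnajb8, a chaperone gene, summits 110 bp apart held 15 and 32 tags. Fold over background was 3.95 (2.32 to 6.36) and 7.28 (5.05 to 10.2), with a mean of 5.61 ± 2.35, and −log10 q was 4.13 and 17.1. Both Gata2 peaks were thus present in each replicate, with a low height in replicate 1.

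The letters of the Gata2 peaks differed. The upstream window, which is inside the non-coding gene Gm38708 and 952 and 944 bp from its TSS, held TAATCC and a GC box. The downstream window held CAAGGTCA, the SF-1 letters, which began 18 bp after the summit of replicate 1 and 92 bp before that of replicate 2. At the promoters, replicate 1 had no peak, and replicate 2 had a summit 867 bp from the TSS shared by 2 coding transcripts, with 15 tags, a −log10 q of 3.57 and matches to the PITX, CRE, CCAAT and GC box letters.

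Foxl2 (chr9:98955288-98958543, plus strand) had no promoter peak in replicate 1. In replicate 2 a summit with 14 tags and a −log10 q of 2.99 lay 397 bp upstream of its TSS, inside an exon of Foxl2os and 93 bp from a TSS of that non-coding gene. Another low peak of replicate 2, with 14 tags, lay 9.97 kb downstream. The highest peak of the Foxl2 window belonged by position to a neighbour.

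That neighbour was Faim, which encodes an inhibitor of apoptosis triggered by death receptors. Its promoter, 31.1 and 30.9 kb from the Foxl2 TSS, held 18 tags in replicate 1, 12 bp from a Faim TSS, and 19 tags in replicate 2, at 157 bp. The −log10 q was 6.22 and 6.21, the smallest spread of any shared peak in the 8 windows. The windows held GCGTGGGCG, the EGR letters, which are present in 0.195% and 0.262% of all windows. Foxl2 itself therefore had no peak in both replicates that was not at the promoter of another gene.

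The LIM homeodomain genes Lhx3 and Lhx4 had few peaks. Lhx3 (chr2:26200212-26208289, minus strand) had none in replicate 1, where the nearest summit was 59.5 kb from any of its TSSs. In replicate 2 it had a peak 32186 bp upstream with 21 tags and a −log10 q of 7.67, and a peak 12.8 kb downstream of the 5′-most TSS with 15 tags and a −log10 q of 3.57. The second one held the SF-1 letters. Neither of these had a partner in replicate 1.

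Lhx4 (chr1:155698031-155751684, minus strand) had a summit with 15 tags in replicate 2, 930 bp inside the TSS of its second coding transcript, with a −log10 q of 3.57. In replicate 1 the promoters of Lhx4 had no peak. The only shared peak lay 25711 and 26155 bp upstream, in an exon of the neighbouring gene Qsox1, with 13 tags in replicate 1 and 16 in replicate 2. Its summits were 444 bp apart, the widest gap of any shared pair, so the peaks touched but did not mark the same bases.

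Pitx1 (chr13:55825051-55836192, minus strand) had no peak near the gene. All its peaks, 4 in replicate 1 and 1 in replicate 2, were 52.9 to 55.6 kb downstream of the 5′-most TSS, inside the antisense gene 4930451E10Rik, with 48.1 and 49.0 kb as the shortest distances to any Pitx1 TSS in replicates 1 and 2. The tags were 12, 11, 14 and 13 in replicate 1 and 22 in replicate 2. Every base of the 300-base windows of these peaks is marked as repeat in the genome sequence, and the central 50 bp occur at 6 to 1394 places. The window of Pitx1 thus held no peak of single-copy sequence in either replicate.

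Tags at peaks that overlapped between replicates were compared with an exact two-sided binomial test. The expected share of replicate 2 was its share of the tags over all 36210 pairs, 56.5%. The 100 pairs with most tags held 17.4% of these tags, so few pairs weigh heavily in that share. The background tags of the replicates gave an expected share of 53.7%. After Benjamini-Hochberg adjustment over all pairs, 0.798% of them differed between replicates (289 pairs, 196 of them higher in replicate 2). Of the 12 pairs in the member windows, 0 differed, and 2 had an unadjusted exact p under 0.05. These were the Isl1 promoter, 16 against 41 tags (exact binomial p = 0.0224, adjusted p = 0.630), and the upstream peak of Nr0b1, 21 against 47 tags (exact binomial p = 0.0378, adjusted p = 0.783). A pair entered only where both replicates had a listed peak, so peaks found in 1 replicate alone were not tested. The Pitx1 peak of replicate 2 overlapped 2 peaks of replicate 1 and is counted in 2 of the 12 pairs. At such low tag numbers, 0 called pairs does not show that the replicates were alike. The test compares 2 libraries of the same treatment, treats tags as independent, covers counting error only and says nothing of GnRH.

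**Figure D4:**
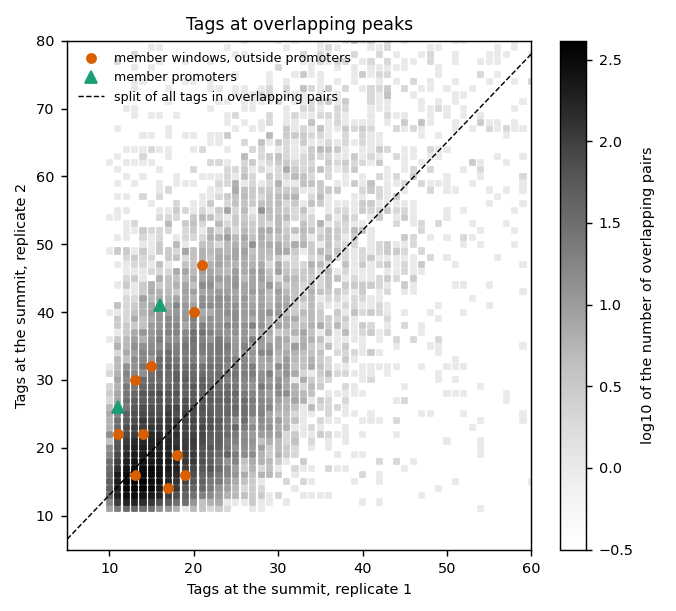
Tags at the summit in replicate 1 (horizontal axis) and replicate 2 (vertical axis) of overlapping peaks. Grey squares are all pairs with up to 60 and 80 tags, darker where more pairs fall (log10 scale), the dashed line is the split of all tags, and coloured points are the 12 pairs of the member windows. The 2 promoter pairs, Isl1 and Nr0b1, lie above the line at 16 and 41 and at 11 and 26 tags.

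The fold over background was higher in replicate 2 at 9 of the 12 member pairs, beside 61.7% of all pairs. The 3 exceptions were the Faim promoter and the repeat-rich pairs 32 and 36 kb downstream of Nr0b1. Of the 12 pairs, 8 had a single-copy centre in each replicate, and among these the folds were higher in replicate 2 at all but Faim. Over all overlapping pairs the fold was higher in replicate 2 as well, with a median log2 ratio of 0.12.

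The letters searched were then counted over all member windows. SF-1 letters were present in 2 of 18 windows of replicate 1 and 3 of 27 of replicate 2, 11.1% in each, beside 1.92% and 2.68% of all summit windows. They include the downstream peak of Gata2 in both replicates and that of Lhx3 in replicate 2. PITX letters were present in 3 and 5 windows, 16.7% and 18.5%, beside 7.68% and 8.15% of all. In each replicate 1 of these windows was repeat sequence, downstream of Pitx1 in replicate 1 (centre at 1394 places) and of Nr5a1 in replicate 2 (1057 places).

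GATA letters were present in 3 and 2 member windows, 16.7% and 7.41%, beside 13.7% and 14.0% of all summit windows. LIM homeodomain letters were present in 1 and 1, the repeat sequence downstream of Pitx1, beside 3.62% and 3.58% of all. Forkhead letters were in 0 member windows of either replicate and in 2.48% and 2.61% of all. Windows of the replicates overlap at the shared peaks, and these low counts were not tested.

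Other factors of the early pituitary served as a comparison by counts. Of 10 such genes, 2 had a promoter peak in replicate 1 and 4 in replicate 2. These are 20% and 40%, beside 32.3% and 44.4% of all protein-coding genes. Lhx2, a LIM homeodomain gene, had one in both, with −log10 q of 12.0 and 25.1. Otx2, Six3, Six6, Sox2 and Sox3, several of which mark progenitors, had none in either replicate.

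Among 17 paralogues of the 8 genes, 4 (23.5%) had a promoter peak in replicate 1 and 8 (47.1%) in replicate 2. Over all protein-coding genes the shares were 32.3% and 44.4%. The paralogues with a peak in both replicates included Lhx2, Gata4 with −log10 q of 3.49 and 5.51, and Gata5 with 2.31 and 2.99. Gata4, Gata5 and Lhx2 therefore had listed promoter peaks in replicate 1, where Gata2, Lhx3 and Lhx4 had none. This contrast did not hold in replicate 2, where Gata2 and Lhx4 were each at 3.57, above Gata5, and Lhx3 again had none. No promoter peak in either replicate was listed for Nr5a2, Gata1, Gata6, Foxl1, Lhx1, Lhx5, Lhx8, Isl2 and Nr0b2.

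A list of factors of other pituitary lineages, with the neuroendocrine gene Insm1 among them, was used to check the label of the cells. Of 6 genes, 0 had a promoter peak in replicate 1 and 1 in replicate 2, beside 32.3% and 44.4% of all protein-coding genes. The 1 gene was Insm1, a neuroendocrine zinc finger gene, at a −log10 q of 10.02. Pou1f1 (somatotropes, lactotropes and thyrotropes), Tbx19 and Pax7 (corticotropes and melanotropes), Neurod1 and Neurod4 had none. The range of values, from 0 to 10.02, overlaps that of the 8 gonadotrope factors, but its upper end is Insm1 in replicate 2 alone. As a neuroendocrine gene, Insm1 does not stand for a lineage other than the gonadotrope. All other values of the 6 genes were 0. Pitx1 and Lhx3, of the 8 factors, were also at 0 in both replicates, so these counts do not settle the label of the cells.

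Of 5 target genes of the gonadotrope, Lhb and Cga exceeded all 8 factors in both replicates. Promoter −log10 q was 37.6 and 60.5 at Lhb, the β-subunit of luteinizing hormone, 12.0 and 36.0 at Cga, the subunit that the glycoprotein hormones share, and 9.36 and 18.0 at Gnrhr, the receptor of GnRH. Fshb, the β-subunit of follicle-stimulating hormone, and Fst, which encodes the activin-binding protein follistatin, had no promoter peak in either replicate. A peak was thus listed in both replicates at 3 of 5 target promoters, beside 30.8% of protein-coding genes. Isl1, the highest of the 8 factors, was below Lhb and Cga in both replicates and above Gnrhr in replicate 2 alone.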

How the data were processed

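ATAC-seq libraries of 2 replicates of GnRH-treated LβT2 cells were analysed; the study calls the samples independent, and the sources used here do not say whether they came from separate cultures, so part of their spread may be technical. The authors mapped reads with bowtie2 to GRCm38 (mm10), removed duplicates and called peaks with MACS2 on each replicate separately, with a genome-size preset for the fruit fly and extension to a fixed length (versions are not given in the sources used here). A smaller genome size raises the expected background, and extended reads are not centred on the transposase cut, so weak regions can be missed and summits can lie off the cut. Some listed peaks are narrower than the stated extension, down to 164 bp in the windows examined, so the options behind the deposited lists may differ from those stated.

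The deposited lists give for each peak its position, a score (−log10 q scaled up and cut to a whole number), the ratio of tags to background at the summit (fold), and −log10 p and −log10 q. Total reads are not given in them. The fold is that ratio after a single tag is added to both the tags and the background. From the deposited fold, tags were solved as whole numbers with a background of 3.05 tags in replicate 1 and 3.54 in replicate 2; the −log10 p recomputed from them differed from the listed ones by at most 0.000143.

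Genes, TSSs and exons came from GENCODE vM21 and sequences from the GRCm38 assembly of RefSeq. Promoters spanned 1 kb on each side of any TSS. Motifs were searched in 300 bp around a summit. Overlapping pairs were tested with an exact binomial test and Benjamini-Hochberg adjustment at 0.05. Python 3.11.15 with numpy 2.4.6, pandas 2.3.3, scipy 1.17.1, numba 0.67.0 and matplotlib 3.10.9 was used, and the steps were tested on simulated data. Alternatives changed the threshold on −log10 q, the promoter width, the window, the annotation, the overlap rule, the copy number of summits and the expected split, and left out each replicate. The members and lists were chosen with earlier results of these data known. Named were all 8 members with their highest promoter peak and highest other peak, neighbours whose promoter held the highest peak of a window, and, of each other list, genes with a promoter peak in both replicates or in neither. Insm1, Psmb7 and Qsox1 and other neighbours were named after their values were seen. Some genes of the comparison lists and 1 sequence are not reported here.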

Additional observations from a re-analysis of the deposited data

How the results depend on the processing

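With n = 2 and 1 treatment, no value here bears on GnRH, and a gene without a listed peak may lie under the lowest tag numbers that the lists hold. No paired analysis was possible because the 2 replicates belong to 1 group. The number of genes with a promoter peak in both replicates, 2 as reported, was 0 at a −log10 q of at least 10, and it ranged from 2 to 6 when each replicate was left out. It was 2 with promoters of 500 bp, with RefSeq TSSs and with the TSSs of coding transcripts alone (the last chosen after seeing the data), and 3 with promoters of 2 kb, which added Nr5a1. RefSeq TSSs left 5 genes with a promoter peak in replicate 2, without Gata2, and promoters of 500 bp left 4. The mean number of window peaks, 22.5, was 3 at a −log10 q of at least 10, 12.5 with 25 kb beyond the gene, 31.5 with 100 kb, and 16.5 over single-copy summits. The mean shared percentage, 53.7, was 18.5 when at least 50% of both peaks had to overlap, 23.1 with summits within 100 bp, and 54.5 over single-copy summits. Over all peaks the stricter overlap gave 35.8% and 32.2%, and the summit limit gave 30.6% and 27.6%. The median promoter percentile, 29.3 as the mean of 0 and 58.6 in the replicates, was 0 at a −log10 q of at least 10, 14.96 with promoters of 500 bp, 28.5 with 2 kb, 29.3 with RefSeq TSSs, 29.8 with TSSs of coding transcripts and 39.4 among all GENCODE genes. With the expected split taken from the background tags, 443 pairs differed, of which 386 were higher in replicate 2. A shared percentage at a −log10 q of at least 10 was not computed because no window peak of replicate 1 passed.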

Other observations

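The neighbours of the 8 genes gave a few promoter peaks of their own. Psmb7, a proteasome subunit gene, had a summit 66 bp from a TSS with 14 tags in replicate 1 and none within the Nr5a1 window in replicate 2, and the Faim promoter had 18 and 19 tags. Hesx1, a repressor of the early pituitary, had a promoter peak in replicate 2 alone, at a −log10 q of 2.43, although 9 and 14 peaks lay in its window. Insm1 showed the same pattern, with 7 and 13 peaks in its window and a promoter −log10 q of 10.02 in replicate 2 alone. The promoters of 6 of the 10 early pituitary factors are CpG-rich by the definition used above. Of these, Otx2, Sox2, Sox3 and Six6 had no promoter peak in either replicate, whereas Lhx2 had one in both, at 12.0 and 25.1. Over all CpG-rich genes, 51.5% had a promoter peak in replicate 1 and 71.4% in replicate 2.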
